A study of Homo sapiens with 6 samples.

Results

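The regions marked by H3K27ac in HSC3 cells after knockdown of DLEU1 were compared with those of control cells, region by region. HSC3 is an established cell line of human oral squamous cell carcinoma (OSCC), and DLEU1 is a long noncoding RNA (lncRNA) gene of chromosome band 13q14. Chromatin was taken from cells given either a control siRNA or one against DLEU1 (siDLEU1-2), 72 h after transfection, and 1 ChIP-seq library was made per siRNA and mark. The values below therefore have no replicates behind them and carry no p-values, and the intervals shown cover the counting of regions or of DNA fragments only. The members were the regions that the authors called on chromosomes 1 to 22 and X, 19705 in control cells and 17672 in siDLEU1-2 cells, or 37377 of the 152902 regions in all 4 lists of the series. A control region was called retained when regions of siDLEU1-2 cells covered at least 50% of its bases, narrowed when they covered fewer, and unmatched when they covered none. An unmatched region is one whose signal did not pass the authors' threshold in siDLEU1-2 cells, which does not mean that no acetylation was there.

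Acetylation of histone H3 at lysine 27 is placed by the acetyltransferases EP300 and CREBBP, removed by histone deacetylases, and read by proteins with a bromodomain. It marks the nucleosomes that flank active TSSs and active enhancers, on both sides of the nucleosome-free stretch where transcription factors and polymerase bind. In a squamous carcinoma line, the keratin, integrin and EGFR loci are among the genes known to be active. Interferon-stimulated genes (ISGs) are switched on by interferon signalling through a short promoter element called the ISRE.

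Sequences of 2 kinds are printed because many of the regions at or next to them had low coverage in siDLEU1-2 cells. The first are stretches upstream of ISGs, from GRCh37 and on the strand of the gene, with the ISRE core in capitals (GAAANNGAA or its reverse complement, both strands searched). Their places are chr1:27998768-27998816 on the minus strand for IFI6, chr10:91152245-91152293 on the plus strand for IFIT1 and chr1:948756-948804 on the plus strand for ISG15. The region at the TSS was unmatched for IFI6, narrowed for IFIT1 and retained for ISG15.
IFI6: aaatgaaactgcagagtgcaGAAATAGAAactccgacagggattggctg
IFIT1: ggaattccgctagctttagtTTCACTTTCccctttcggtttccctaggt
ISG15: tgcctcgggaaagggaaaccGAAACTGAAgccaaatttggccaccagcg

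The second kind are tRNA-type promoters, in which an A box and a B box (both in capitals) lie inside the transcribed stretch and recruit RNA polymerase III. The A box and B box were searched by their consensus on both strands, with 20 to 80 bp between them, and 124 of the 19705 control regions (0.629%) held a pair. The printed pairs come from narrowed regions that lie away from TSSs, in GRCh37 on the plus strand, at chr1:204475662-204475716 upstream of MDM4, chr6:27470825-27470888 upstream of ZNF184, chr6:28949983-28950036 upstream of HCG15 and chr6:26569093-26569165 near ABT1. A match describes the letters and does not show that the site is used.
MDM4 upstream: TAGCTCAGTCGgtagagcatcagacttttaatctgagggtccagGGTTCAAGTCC
ZNF184 upstream: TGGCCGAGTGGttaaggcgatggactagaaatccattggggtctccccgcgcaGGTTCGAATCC
HCG15 upstream: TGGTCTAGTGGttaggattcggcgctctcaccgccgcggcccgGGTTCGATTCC
ABT1 vicinity: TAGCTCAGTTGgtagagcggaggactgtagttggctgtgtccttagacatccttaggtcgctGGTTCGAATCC

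The labelled cell type was checked first against the H3K27ac lists. All 12 markers of squamous epithelium, such as KRT5, KRT14, TP63 and ITGA6, had a control region at the TSS, and none of the 10 listed markers of blood, endothelium, fibroblasts, liver, glia or muscle that the annotation held had one. The 12 squamous markers were retained in siDLEU1-2 cells. From the fragment numbers recovered for each region, and with a mappable genome of 2.7 Gb assumed, the depth was 21.5 M reads for the control library and 29.4 M for that of siDLEU1-2, a ratio of 1.37, so the library with fewer and narrower regions was the deeper one.

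At the cutoff of 50% covered most control regions were retained, and the larger share of the bases lost came from regions that stayed. Of the 19705 control regions, 13924 (70.7%) were retained, 1410 (7.16%) were narrowed and 4371 (22.2%) were unmatched (95% Wilson interval 21.6 to 22.8). In the other direction, 219 of the 17672 regions of siDLEU1-2 cells (1.24%) overlapped no control region. Control regions held 5.26 Mb that no siDLEU1-2 region covered, and 55.8% of these bases lay in retained regions, 14.8% in narrowed ones and 29.3% in unmatched ones. Only 0.31 Mb of siDLEU1-2 regions lay outside control regions. With the cutoff at 75% covered, 45.5% would be retained and 32.4% narrowed. The cutoff of 50% fell within a continuous range, as 580 retained regions were 50 to 55% covered and 407 narrowed ones 45 to 50%.

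Unmatched regions were short and weak in control cells. Their median width was 299 bp, against 787 bp for narrowed and 928 bp for retained regions. Their median percentile of fold enrichment in the control list was 13.9, against 40.3 and 63.5, and their median number of fragments at the summit was 29, against 58 and 96. Only 36 of the 4371 (0.824%) ranked at or above the median of the control list. The 219 regions seen in siDLEU1-2 cells alone were of the same kind, with a median width of 232 bp, a median percentile of 8.79 and 30 fragments at the summit.

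Retention differed by position. At TSSs of protein-coding genes (within 1 kb), 14.9% of the 15460 control regions were unmatched (14.3 to 15.5), at TSSs of lncRNA genes alone 27% of 567 (23.5 to 30.8), in gene bodies 57.3% of 1340 (54.6 to 59.9) and between genes 49.1% of 2338 (47.0 to 51.1). Narrowed regions made up 6.33%, 8.64%, 8.58% and 11.5% of these classes. The classes also differed in strength, with median percentiles of 57.7, 39.9, 17.8 and 25, so they were compared within quartiles of control fold enrichment.

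**Figure D1:**
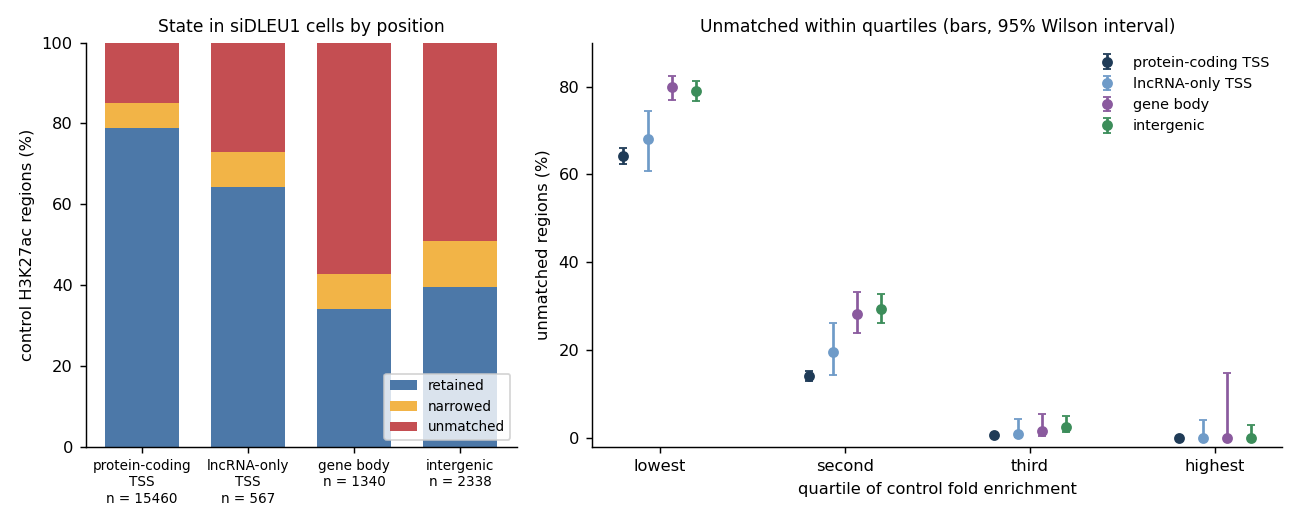
The left panel stacks the percent of control H3K27ac regions that were retained, narrowed or unmatched in siDLEU1-2 cells for each position class. The right panel gives the percent unmatched (points) with 95% Wilson intervals (bars) within quartiles of control fold enrichment. In the second quartile the points for gene bodies (28.2%) and intergenic regions (29.4%) lie above that for protein-coding TSSs (14%), and in the highest quartile all are at 0.

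Within the lowest and the second quartile, regions away from TSSs were still unmatched more often than those at protein-coding TSSs. In the third quartile few were unmatched (25 of 4342 at protein-coding TSSs, 2 of 130 in gene bodies, 8 of 315 between genes). There the interval for gene bodies (0.423 to 5.44%) overlapped that for protein-coding TSSs (0.390 to 0.849%), and that between genes was 1.29 to 4.93%. In the lowest quartile, 64.1% of regions at protein-coding TSSs were unmatched (62.3 to 65.9), against 79.9% in gene bodies (77.0 to 82.4) and 79.1% between genes (76.7 to 81.3). In the highest quartile none of the 4936 regions was unmatched. There, 1.88% of regions at protein-coding TSSs were narrowed (1.53 to 2.31), against 12.3% between genes (7.72 to 19.1). In the third quartile the narrowed share was 5.85% at protein-coding TSSs (5.19 to 6.59), 15.4% in gene bodies (10.2 to 22.6) and 18.7% between genes (14.8 to 23.4). In the second and the third quartile, regions away from TSSs were thus unmatched or narrowed more often than those at protein-coding TSSs.

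The unmatched share was highest on chromosomes 18, X and 15. On chromosome 18, 31.0% of 306 control regions were unmatched (26.1 to 36.4), and on X 29.4% of 674 (26.1 to 32.9). On chromosome 15 it was 27.5% (24.3 to 31.1), and the others ran down to 18.5% on chromosome 13 (14.9 to 22.7). With equal numbers of regions in both lists the order was X, 15 and 18. Relative to control cells, the covered length in siDLEU1-2 cells was 0.605 on chromosome 18 and 0.623 on X, against 0.660 on chromosome 15 to 0.758 on chromosome 17 for the others. Chromosomes 18 and X also had the weakest control regions, at a median percentile of 34.1 for chromosome 18 and 36.4 for X. Within the lowest quartile, 75.9% and 73.5% of their regions were unmatched, against 70.5% over all chromosomes, and within the second quartile 11.3% and 13.8%, against 17.5%. On chromosome 13, which carries DLEU1, the unmatched share was the lowest, nearly level with chromosome 20, also at 18.5%. Copy number in this line was not analysed here.

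**Figure D2:**
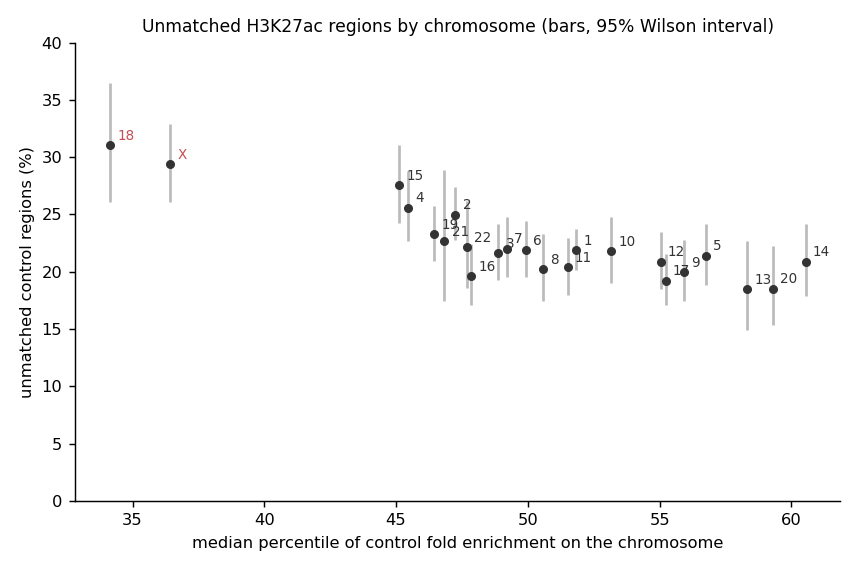
Each point is a chromosome, with the median percentile of fold enrichment of its control H3K27ac regions on the x axis and the percent of these regions that were unmatched in siDLEU1-2 cells on the y axis (bars, 95% Wilson interval). Chromosomes 18 and X, in red, lie at the upper left, at 31.0% and 29.4% unmatched.

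Most regions that stayed were trimmed at both ends. Among 13137 pairs in which 1 control region met 1 siDLEU1-2 region, the control region had a median width of 835 bp and its partner one of 642 bp, and the median width ratio was 0.808 (quartiles 0.663 and 0.911). The siDLEU1-2 region was narrower in 90.8% of pairs and wider in 9.10%. Both edges moved inward in 74.8% of pairs, and 1 edge alone in 23.2%. Over the edges of all pairs, including those that moved outward, the median loss was 61 bp. The midpoint of the region moved by a median of 43.5 bp, so the trimming of a region was often uneven. In the H3K4me3 lists of the same cells, whose depths were in the opposite order, the median width ratio of 33006 pairs was 0.930 and both edges moved inward in 33.6%.

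The trimming also depended on position and width. The width ratio was 0.819 at protein-coding TSSs, 0.798 at lncRNA TSSs, 0.703 in gene bodies and 0.694 between genes. It was 0.900 for control regions of up to 300 bp, lowest for those of 300 to 600 bp, at 0.738, and reached 0.868 for those of 2 to 3 kb. Over 3 kb it was 0.915 in 35 pairs. The bases lost per edge rose with width, from a median of 15 bp at up to 300 bp and 50 bp at 300 to 600 bp to 113 bp at 2 to 3 kb.

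Around TSSs, the siDLEU1-2 regions kept to the downstream side and more often left the TSS itself uncovered. At 7585 pairs near a single protein-coding TSS, with no TSS of the other strand within 1 kb, the median region of control cells reached 78 bp upstream and 767 bp downstream of the TSS, and that of siDLEU1-2 cells 16 bp upstream and 684 bp downstream. The median loss was 56 bp at the upstream edge and 64 bp at the downstream edge. The TSS lay inside the region in 4288 pairs (56.5%) in control cells and in 2928 (38.6%) in siDLEU1-2 cells. At 1402 TSSs it was inside the control region alone, and at 1347 of these the siDLEU1-2 region lay downstream. The reverse, a TSS inside the siDLEU1-2 region alone, was seen at 42 TSSs. Regions that reached over 300 bp upstream made up 38.3% of the control side of these pairs and 29.6% of the siDLEU1-2 side.

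**Figure D3:**
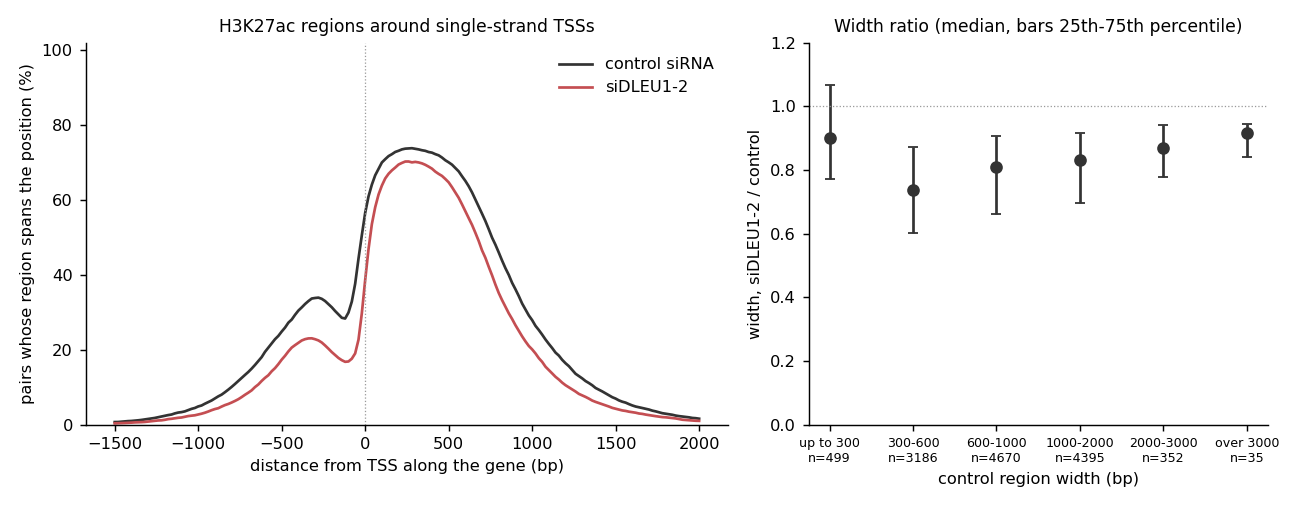
The left panel gives the percent of the 7585 pairs whose H3K27ac region spanned each position, by distance from the TSS along the gene (bp), for control cells (black) and siDLEU1-2 cells (red). At the TSS the lines are at 56.5% and 38.6%. The right panel gives the ratio of region widths (median, bars from the 25th to the 75th percentile) by control width, lowest at 0.738 for 300 to 600 bp.

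The place of strongest signal hardly moved while the edges drew in. The summits of the 13137 pairs lay a median of 36 bp apart (quartiles 15 and 76 bp), and 81.5% were within 100 bp. Along the gene, the control summit lay a median of 221 bp downstream of the TSS and the siDLEU1-2 summit 229 bp, and the median shift of a pair was 2 bp (quartiles -32 and 39 bp). The summit changed sides of the TSS in 113 pairs (1.49%). Summits over 500 bp apart were found in 250 pairs (1.90%), mostly in wide regions. The largest distances were 1725 bp at SINHCAF, 1593 bp at EFNA5, which encodes an ephrin ligand, 1560 bp at SVIL, 1478 bp at SLC12A2-DT and 1443 bp at CDK13, a kinase of RNA polymerase II. All 5 of these regions were retained, with 75.1 to 95.5% of their bases covered.

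Some wide regions broke up. Of the 15334 matched control regions, 2036 (13.3%) were met by several siDLEU1-2 regions, 1879 of them by 2. Their median control width was 1614.5 bp, and 94.5% lay at a TSS. The gaps between the pieces had a median length of 176 bp (quartiles 146 and 225 bp). In regions that held a canonical TSS, 708 of 1762 gaps (40.2%) lay over it. The region at BCL11A, of 4391 bp on chromosome 2 from 60776462 to 60780852, fell into 5 pieces, the most of any, with 70.6% of its bases still covered. Conversely, 90 siDLEU1-2 regions joined 180 control regions in pairs.

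Coverage at the summit was lower in siDLEU1-2 cells at nearly all regions that were called again. For each region the number of DNA fragments at the summit was recovered from its fold enrichment and p, and expressed as a multiple of the mean coverage of the genome in the same library, which does not depend on depth. The median region had 50.4 times the genome mean in control cells and 35.5 times in siDLEU1-2 cells. For 15161 matched control regions, leaving out those that 1 siDLEU1-2 region joined, the ratio of siDLEU1-2 to control coverage had a median of 0.621 (quartiles 0.556 and 0.698). It was 0.619 at protein-coding TSSs, 0.632 at lncRNA TSSs, 0.640 in gene bodies and 0.622 between genes, and by chromosome it ran from 0.602 on chromosome 6 to 0.644 on chromosome 22. These medians leave out the regions that were lost, which were most frequent in gene bodies and between genes. With unmatched regions ranked lowest, the median was 0.599 at protein-coding TSSs, 0.578 at lncRNA TSSs and 0.321 between genes, the median gene body region was unmatched, and chromosomes ran from 0.546 on 18 and 0.551 on X to 0.609 on 11. A weak region enters the ratio only if it was called again, and the median was 0.776 in the lowest quartile and 0.641, 0.613 and 0.60 in the next ones. A lower level of acetylation at all regions and a lower share of precipitated DNA from marked chromatin cannot be told apart in these libraries. The values below are therefore read against the median and not against 1.

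Few regions departed far from this common ratio. It was above 1 at 385 matched regions (2.54%) and under 0.5 at 1528 (10.1%). The 95% counting interval lay wholly below the median ratio at 488 regions (3.22%) and wholly above it at 723 (4.77%). In the H3K4me3 lists the ratio had a median of 1.16 over 36492 regions, so the scale differs between the marks.

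**Figure D4:**
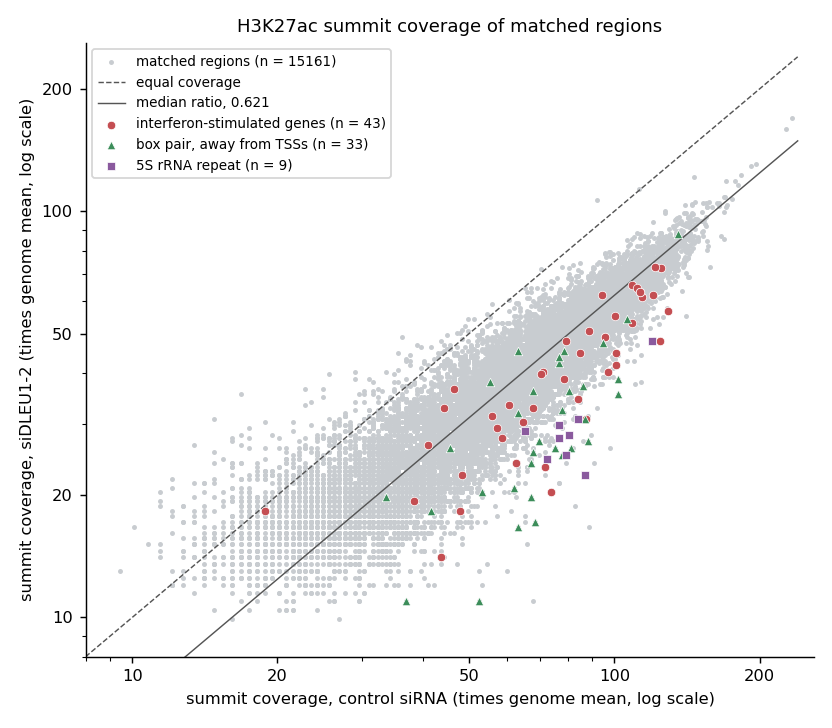
Each grey point is a matched H3K27ac region, with its summit coverage in control cells on the x axis and in siDLEU1-2 cells on the y axis, both as multiples of the genome mean on log scales. The solid line is the median ratio of 0.621 and the dashed line equal coverage. ISGs (red circles), regions away from TSSs with a box pair (green triangles) and the 5S rRNA repeat (purple squares) lie mostly below the solid line.

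Genes were then grouped by role. A gene took its control region of highest fold enrichment within 1 kb of any of its TSSs. Of the 13596 genes with such a region, 757 (5.57%) had a narrowed and 835 (6.14%) an unmatched one, and the median coverage ratio of the matched genes was 0.614. The unmatched share was 58.2% of genes in the lowest quartile of control fold enrichment, 9.61% in the second, 0.370% in the third and 0 in the highest.

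Over matched genes, the ISGs had the lowest median coverage ratio of the lists. With unmatched genes ranked lowest, the median was 0.471 for ISGs and 0.299 for metallothioneins, whose control regions had median percentiles of 62.0 and 27.5. Of 6 clustered protocadherin genes, at a median percentile of 14.2, 3 were unmatched. Their median thus fell between an unmatched gene and the lowest matched ratio, 0.659, and is not given. Of 59 ISGs, 58 had a control region, in 55 different regions because some neighbours share one. Of these 58 genes, 36 were retained, 7 narrowed and 15 unmatched, or 25.9% unmatched. The unmatched ISGs were IFI44, IFI44L, TRIM22, OAS1, OASL, SAMD9, SAMD9L, IFIT3, XAF1, MX2, RSAD2, CMPK2, DHX58, IFI6 and BST2, of which RSAD2 and CMPK2 share a region. They include sensors of foreign RNA (OAS1, OASL, DHX58) and direct antiviral effectors (MX2, RSAD2, BST2). The unmatched region of IFIT3 starts at 91092283 on chromosome 10, and IFIT3 was the 1 unmatched ISG with another siDLEU1-2 region within 1 kb of a TSS. In the second quartile of control fold enrichment 8 of 15 ISGs were unmatched, and in the third 3 of 20 (OAS1, OASL and IFI6). The 43 matched ISGs had a median coverage ratio of 0.514, and 53 of the 58 (91.4%) were unmatched or below the median ratio of all genes, against 7179 of 13596 (52.8%) for all genes. This was not particular to ISGs, as the same held for 16 of 17 NF-kB genes (94.1%), described below. The median control width of ISG regions was 1183.5 bp, and H3K4me3 coverage over the ISG regions had a median ratio of 0.833 at 48 genes, against 1.26 over all genes.

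Single ISGs ranged widely in fragments. The highest ratios were at HERC5, with 28 and 35 fragments (0.970, 0.59 to 1.59), and HERC6, with 69 and 70 (0.787, 0.565 to 1.10). At OAS2, an oligoadenylate synthetase, the summit held 110 fragments in control cells and 39 in siDLEU1-2 cells, or 74.0 and 20.3 times the genome mean, and the ratio of 0.275 (95% counting interval 0.191 to 0.396) was the lowest of the list although 63.0% of the region was covered. At IFI27 it held 130 and 59 fragments (ratio 0.352) and 22.8% of 1470 bp was covered. At MX1, an antiviral GTPase, it held 93 and 46 fragments (ratio 0.384) and 34.9% of 1185 bp was covered. These 3 regions were well above the threshold in control cells. IFIT1 had 61 and 51 fragments (ratio 0.649, 0.447 to 0.941), and here the part that was lost was the width, with 19.9% of 1344 bp covered. Among the widest ISG regions, B2M, the light chain of MHC class I, had 150 and 86 fragments (ratio 0.445), TAP1 and PSMB9, which share a region, 168 and 121 (0.559), PARP14 132 and 97 (0.570) and IFITM1 185 and 92 (0.386). IFITM3 was not narrowed, its 2288 bp being 100% covered by a region of 2326 bp, with a ratio of 0.580. How reads shared between the IFIT or IFITM paralogs were placed is not given in the sources used here, so their values are uncertain.

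An ISRE core was frequent near ISGs whatever their state. From 250 bp before to 50 bp after the canonical TSS, 63.8% of 58 ISGs held one (50.9 to 74.9), against 6.38% of 13575 genes with a control region. Among ISGs it was 10 of the 15 unmatched, 5 of the 7 narrowed and 22 of the 36 retained ones. Over all genes, 7.67% of the unmatched ones held it (6.06 to 9.68) and 6.14% of the retained ones (5.72 to 6.58).

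The genes that receive and relay the interferon signal were near the background of all genes, of which 88.3% were retained. All 9 receptor and JAK kinase genes kept their region, with a median ratio of 0.594. At IFNAR1 the summit held 94 and 82 fragments (ratio 0.677, 0.503 to 0.910) and at IFNAR2 107 and 84 (0.609). At JAK1 it held 123 and 94 fragments (0.593), and at JAK2 145 and 114 (0.610). IFNGR2 was cut to 56.3% of 1356 bp with a ratio of 0.594, and IFNLR1, the lowest, had 0.451 (0.31 to 0.657).

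Some metallothioneins, which bind zinc and copper and are inducible by metals, and some NF-kB genes were unmatched as well. Over all genes with a control region the unmatched share was 6.14%, and in the lowest quartile of control fold enrichment 58.2%. The metallothionein regions were weak, at a median percentile of 27.5. Of 9 metallothionein genes 5 had a control region, of which MT1E and MT1F were unmatched, MT2A and MT1M narrowed and MT1X retained. The 3 matched genes had a median ratio of 0.660, above that of all genes, with MT2A the lowest at 91 and 35 fragments (0.299, 0.202 to 0.441) and MT1X the highest at 0.776. The metallothionein genes are near-identical in parts, and reads may be shared between them. Of 17 NF-kB genes with a region, 14 were retained with ratios of 0.419 to 0.627 (median 0.558), and NFKB2, BIRC3 and CCL20 were unmatched. NFKB2, a subunit of the non-canonical pathway, had 69 fragments in control cells and ranked at percentile 54.9. BIRC3 and CCL20 were weak, with 22 and 20 fragments at percentiles 9.95 and 6.79. NFKB2 had another siDLEU1-2 region within 1 kb of a TSS. TNFAIP3, the feedback inhibitor A20, was among the lower ones with 134 and 75 fragments (ratio 0.434, 0.327 to 0.576). IL1B, the cytokine, had a ratio of 0.468 and NFKBIZ, an inhibitor-like cofactor, 0.579.

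Genes of the squamous state were also near the 88.3% retained over all genes. Of 16 keratin and lineage factor genes, 15 were retained, and PITX1, a homeobox factor, was narrowed to 44.3% of 3724 bp. KRT5 had 117 and 88 fragments (ratio 0.584), KRT14 85 and 91 (0.831, 0.618 to 1.12), and TP63, the master factor of squamous epithelium, 84 and 63 (0.582). The 12 hemidesmosome and basement membrane genes were all retained with a median of 0.596, ITGB4 with 160 and 108 fragments and 99.8% of its bases covered. Of 8 EGFR family genes, BTC, a ligand, was narrowed and the others retained. The region of EGFR itself was 1693 bp wide and 98.8% covered. Among 8 AP-1 genes, FOSB was narrowed and 7 were retained. JUN had a ratio of 0.560 and FOSL1 0.937, from 116 and 140 fragments.

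Invasion and mesenchymal genes were mixed. PLAU, the urokinase gene, had the widest region of its list with 4559 bp, of which 35% stayed covered, and 176 and 99 fragments (ratio 0.437, 0.341 to 0.558). The other 5 protease and inhibitor genes with a region were retained, MMP14 with 94.9% of 2546 bp and a ratio of 0.578. Of 9 EMT and cadherin genes, FN1 and TWIST2 were unmatched, VIM, an intermediate filament gene, was narrowed to 33.8% of 1585 bp, and 6 were retained, among them CDH1 (ratio 0.680), CDH3 (0.637) and CD44 (0.598). FN1 was weak in control cells, with 26 fragments, and another siDLEU1-2 region lay within 1 kb of one of its TSSs.

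The list medians of genes of general cell function were close to the common ratio. Retained were 83 of 84 cytosolic ribosomal protein genes (median ratio 0.612), 76 of 77 mitochondrial ones (0.629), 37 of 37 proteasome genes (0.622), 54 of 58 replication-dependent histone genes (0.605), 25 of 26 snoRNA host genes (0.630) and 129 of 144 zinc finger genes of chromosome 19 (0.613). The zinc finger genes included 7 unmatched ones and H3C3 was the unmatched histone gene. Of 30 cell cycle genes, E2F1 was unmatched, from 22 fragments, MKI67 and RRM2 were narrowed, and CDK6 (0.609) and CCND1 (0.788) were retained. All 20 p53 targets but BBC3, which was narrowed, were retained, with a median ratio of 0.592 and CDKN1A at 0.532. Single p53 targets lay far from that median on both sides. BBC3 had 104 and 48 fragments (0.358, 0.254 to 0.504) and AEN 54 and 94 (1.35, 0.967 to 1.89). Of the 29 genes that write, erase or read histone acetylation, 25 were retained and KAT6A, KAT6B, KAT8 and HDAC6 narrowed, with EP300 at 0.586.

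HOX genes had weaker control regions, at a median percentile of 42.7. Of 26 HOX genes with a region, 17 were retained, 6 narrowed and 3 unmatched, and the unmatched count was 1 with a TSS window of 3 kb and 11 with a stricter q. The median ratio of the matched HOX genes was 0.647, above that of all genes. The unmatched ones, HOXA7, HOXD10 and HOXD8, had 16, 14 and 29 fragments, and HOXD8 had another siDLEU1-2 region within 1 kb of a TSS. HOXD11, the widest, had 77 and 52 fragments (ratio 0.524). Of 53 clustered protocadherin genes 6 had a region, of which PCDHB14, PCDHGB5 and PCDHGB2 were unmatched and PCDHGC3 retained.

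At 13q14 the genes near DLEU1 were likewise retained. All 14 genes with a control region, in 12 regions, were retained, against 88.3% of all genes, with ratios of 0.545 to 0.690 and a median of 0.596. Their control regions were strong, at a median percentile of 87.9, and 97.8% of all regions in the highest quartile were retained. DLEU1 had 136 and 107 fragments (ratio 0.611), DLEU2 156 and 119 (0.592) and RB1 160 and 121 (0.587). KPNA3, an importin gene, had 117 and 104 fragments (0.690), and 61.9% of its 2170 bp were covered. Acetylation at these TSSs says nothing of how far the siRNA lowered the DLEU1 transcript.

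**Figure D5:**
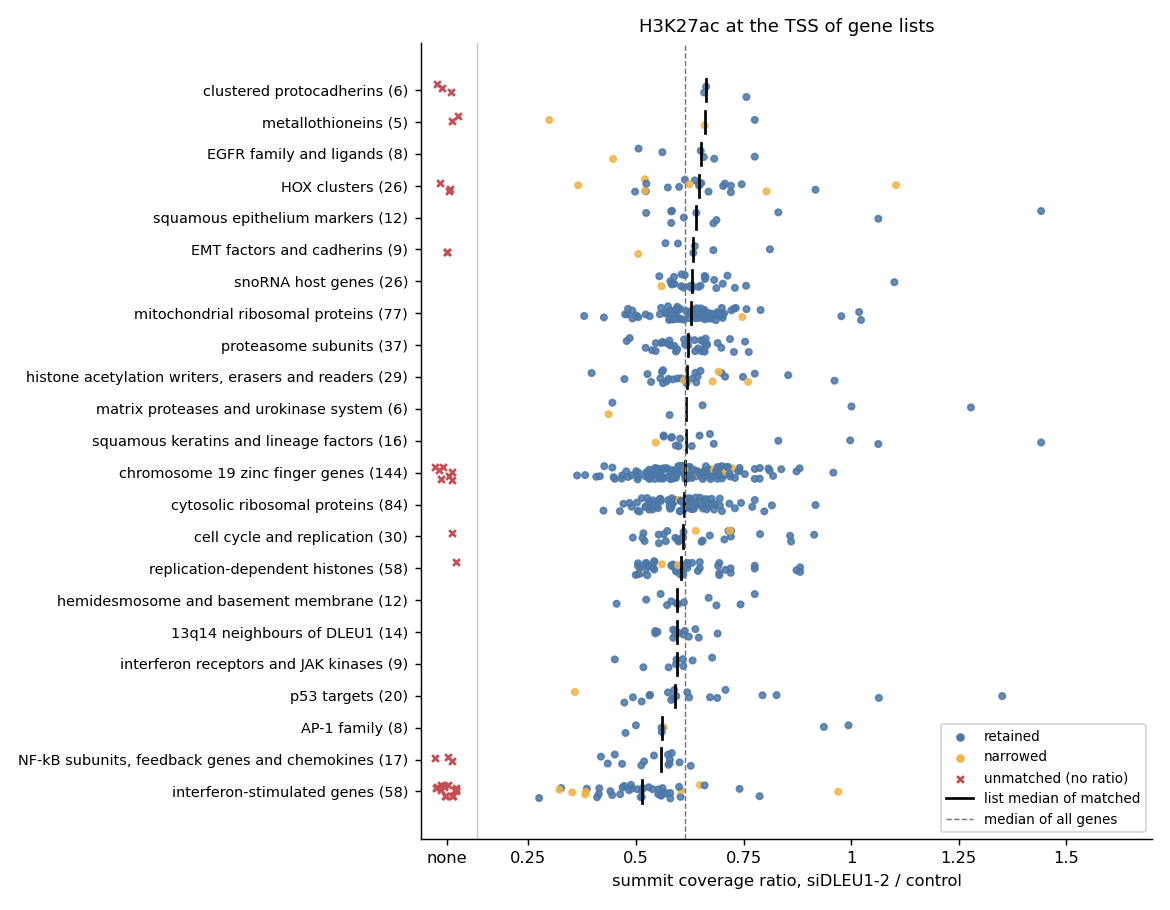
Each point is a gene, with the ratio of H3K27ac summit coverage in siDLEU1-2 to control cells on the x axis, in blue where the region was retained and in orange where it was narrowed. Red crosses at the left are unmatched genes, which have no ratio, black bars are list medians of the matched genes, the dashed line is the median of all genes (0.614), and the number of genes with a control region stands behind each name. ISGs have the lowest median, 0.514, and 15 crosses.

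A set found after the values had been seen were regions with a tRNA-type box pair away from TSSs. Of 55 such regions, 12 were retained, 21 narrowed (38.2%, 26.5 to 51.4) and 22 unmatched (40%, 28.1 to 53.2). The other 3623 regions away from TSSs were narrowed in 9.99% (9.06 to 11) and unmatched in 52.2% (50.6 to 53.9), but they were much weaker, with a median percentile of 21.9 against 55.2. The median coverage ratio was 0.388 for the 33 matched regions with a box pair and 0.629 for the 1707 others. In the third quartile of control fold enrichment it was 0.396 against 0.586, with 10 of 19 regions narrowed against 69 of 426, and in the highest quartile 0.384 against 0.603, with 8 of 12 narrowed against 12 of 140. At TSSs, 66 matched regions with a box pair had a median of 0.601. Of the 55 regions 13 lay on chromosome 6, and without that chromosome the median was 0.438 over 25 matched regions. H3K4me3 coverage over the same regions had a median ratio of 0.898 at 43 regions, against 1.09 at 2646 others away from TSSs. tRNA genes come in near-identical copies, so the placing of reads adds uncertainty at each of them.

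Box pairs were near several of the lowest ratios. These ratios had been seen before the box pair set was made, and some regions are in both. The count below is therefore no separate support for that set. Among matched regions with at least 60 control fragments, 5 of the 10 with the lowest ratios lay within 500 bp of a box pair, against 1.59% of all 11667. They included the region upstream of MDM4, on chromosome 1 from 204475266 to 204477092, with 78 and 21 fragments (ratio 0.209, 0.129 to 0.338) and 13.8% of its bases covered, and that at the TSS of LINC01556, on chromosome 6 from 28911420 to 28912386, with 101 and 21 fragments (0.161, 0.101 to 0.258). FLOT1, which encodes a lipid raft protein, had 132 and 32 fragments (0.188, 0.128 to 0.277) with no box pair nearby. Of these 10 regions, 6 are on chromosome 6, against 5.57% of the 11667.

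Other genes of RNA polymerase III were looked up for comparison. The 5S rRNA repeat on chromosome 1, with genes from 228746015 to 228781905, has 17 annotated genes, and the control region of highest fold enrichment near each, 16 regions in all, was narrowed in 9 cases, unmatched in 7 and retained in none. Other regions beside them were not counted. Their summits held 90 to 178 fragments in control cells, above the median of all regions, and the 9 matched ones had ratios of 0.259 to 0.440 (median 0.361). The repeat units are near-identical and reads cannot be assigned to one of them, so the 16 regions are not separate measurements. Among 16 other genes, 14 had a region near them, in 13 regions with a median ratio of 0.487, 10 of the 11 matched ones being below the median of all regions. The VTRNA1-2 region is also 1 of the box pair regions away from TSSs above. Vault RNA genes VTRNA1-1 and VTRNA1-2 had 0.312 and 0.296 and the Y RNA gene RNY1 0.361, whereas RMRP, the RNA of RNase MRP, had 0.594.

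Retained and unmatched regions differed in control strength, at median percentiles of 63.5 and 13.9. The motif shares below were not compared within quartiles of control fold enrichment, so strength and state are not separated in them. Sequence around the summit differed between retained and unmatched regions. In the 150 bp on either side, an AP-1 motif (TGANTCA) was found at 2.63% of retained TSS regions (2.36 to 2.93) and 5.58% of unmatched ones (4.74 to 6.56), and away from TSSs at 5.87% (4.75 to 7.24) and 8.46% (7.29 to 9.79). A GC box (GGGCGG) was found at 56.0% of retained and 49.0% of unmatched TSS regions, and away from TSSs at 41.9% and 28.9%. Over all control regions these motifs were found at 3.96% and 51.1%. The ISRE core was found at 5.68% of retained (5.29 to 6.10) and 9.24% of unmatched TSS regions (8.16 to 10.5), and away from TSSs at 20.7% and 28.2%, against 9.86% of all regions. In a window of 100 bp it was found at 3.56% and 5.82% of TSS regions. Away from TSSs the difference was small in that window, at 16.2% of retained and 17.9% of unmatched regions. The CCAAT box (CCAAT) went the way of AP-1, at 16.4% of retained and 22.6% of unmatched TSS regions, and the ETS motif (CCGGAA) the way of the GC box, at 16.7% and 13.4%, against 17.7% and 14.8% over all regions. The median number of CpG sites in the window was 24 in retained and 18 in unmatched TSS regions, and within the second quartile of control fold enrichment it was 23 and 18. GC content moved with the state as well, at 66.1% and 60.8%, and its part in the difference was not tested.

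Ranked by percentile of fold enrichment, the 5 strongest control regions that were lost lay at TSSs. They were those at OAS1 (percentile 68.3, 87 fragments), NOXA1, an activator of NADPH oxidase (67.9, 91 fragments), TGM2, a transglutaminase (64.4, 92 fragments), EGLN3, a prolyl hydroxylase of hypoxia signalling (63.4, 81 fragments), and IFI6 (63.0, 80 fragments). The OAS1 region ran on chromosome 12 from 113344758 to 113345841 from upstream of the gene over exon 1 into intron 1. The TGM2 region, of 431 bp on chromosome 20 from 36793328 to 36793758, likewise lay over the upstream flank, exon 1 and intron 1. H3K4me3 coverage over these regions, as a ratio, was 0.324 at OAS1, 0.438 at TGM2, 0.737 at NOXA1 and 1.18 at EGLN3, against a median of 1.21 over all control regions, and no H3K4me3 region of siDLEU1-2 cells overlapped that of IFI6. OAS1 and IFI6 are ISGs. By fragments at the summit, unmatched regions away from these genes were stronger, such as those of the 5S repeat at RNA5S10 (133 fragments) and upstream of PSMA3 (106 fragments), named after their values were seen.

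The strongest regions of siDLEU1-2 cells alone were weaker than these. They lay near LINC00251, on chromosome 8 and not at a TSS (60 fragments, percentile 54.6), at ABAT, which breaks down GABA (50 fragments, 42.2), at TRNP1 (50 fragments, 42.2), near TEX13C on X (49 fragments, 40.5) and at TRIM9, an E3 ligase (63 fragments, 40.2). Of all 219 such regions, 141 (64.4%) lay at a TSS.

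Among strong wide regions, the most narrowed were those at ADIRF-AS1 (9.99% of 1822 bp covered, ratio 0.328), upstream of HCG15 (13.1% of 1993 bp, 0.264), upstream of MDM4 (above), at SAP30, a subunit of the Sin3 deacetylase complex (15.5% of 1332 bp, 0.484), and at OCEL1 (16.6% of 1353 bp, 0.404). The regions upstream of HCG15 and MDM4 each held 2 box pairs. The widest retained regions were those of MALAT1 (7012 bp, 88.6% covered), TNRC18 (5941 bp, 90.2%), ZFP36L1, an mRNA decay factor (5729 bp, 85.1%), NEAT1, the lncRNA of paraspeckles (5706 bp, 91.1%), and ADM, which encodes adrenomedullin (5681 bp, 97.1%). NEAT1 kept 1 region, of 5222 bp, while MALAT1, TNRC18 and ZFP36L1 were each covered by 3 pieces. The ratios of these 5 were 0.523 to 0.615, close to the common one.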

How the data were processed

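Reads from the Ion Proton were aligned by the authors to hg19 (bowtie2, per the study's methods) and peaks called with MACS2, whose settings and control libraries are not given in the sources used here. The deposited fold ratio is enrichment over local background, the deposited −log10 p and −log10 q come from MACS2, the deposited summit offset was used and the deposited score was not. Inputs were not analysed here. Depth was not read from any file: fragments at summits were solved from fold and p, and returned the p of 100% of regions. Positions were set against GRCh37 and 24135 genes of GENCODE with Python 3.11.15, numpy 2.4.6 and pandas 2.3.3. Intervals are at 95%, Wilson for shares and from Poisson counting for ratios. Scripts were tested on simulated data. Members and lists were chosen with earlier results of these data known.

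Named by rule were the 5 regions at each extreme (unmatched, siDLEU1-2 alone, least covered, widest, farthest summit), at most 6 members of each list with the widest region, every unmatched member, and genes the study names. BCL11A, other narrowed list members, other genes given as examples, the box pair and lowest-ratio regions and the polymerase III genes were chosen after their values were seen.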

Additional observations from a re-analysis of the deposited data

How the results depend on the processing

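No paired analysis was possible because each siRNA and mark has 1 library, and for the same reason no replicate could be left out. Of 76 alternatives, 58 were marked as moved and 18 as the same. A share was marked as moved when it left its counting interval, and a gene count when it changed by more than a fixed fold. Widths, distances and ratios were marked as moved when they differed after rounding, so very small changes are among the 58. The marks did not test whether any value changed direction. With only peaks of −log10 q of at least 10, 63.8% of control regions were retained, 5.48% narrowed and 30.7% unmatched, and unmatched shares were 25.7% at protein-coding TSSs, 40.6% at lncRNA TSSs, 71.5% in gene bodies and 63.7% between genes. With equal numbers of regions (the strongest of each list), the shares were 77.3%, 7.70% and 15.0%, and by class 10.3%, 19.2%, 43.2% and 37%. With peaks within 1 kb stitched they were 72.7%, 11% and 16.3%. With retention set at 75% covered, 45.5% were retained and 32.4% narrowed, and with an overlap of 50% of both regions 64.6% were retained, 0% narrowed and 35.4% unmatched. A TSS window of 3 kb gave 16.2% unmatched at protein-coding TSSs.

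The unmatched share of chromosome 18 was 62.3% at the stricter q and 18.3% with equal numbers (covered ratio 0.380 and 0.652), and that of X 51.8% and 20% (0.430 and 0.660). Chromosomes 18 and X were highest at the stricter q, whereas with equal numbers the order was X, 15 and 18. The width ratio was 0.828 and 0.807, the edge loss 63 and 62 bp, and the summit distance 35 bp at the stricter q and 43.5 bp by region midpoint. At the stricter q, 16.7% of genes were unmatched and 6.23% narrowed, ISGs were narrowed in 2 and unmatched in 24 cases, and HOX genes retained in 9, narrowed in 1 and unmatched in 11. A 3 kb window left 1 HOX gene unmatched. In a window of 100 bp, AP-1 motifs were found at 1.7% of retained and 3.66% of unmatched TSS regions and at 4.49% and 5.90% away from TSSs, and GC boxes at 41.5%, 35.3%, 29.7% and 20.9%.

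Alternatives for the coverage ratio were added after seeing the data. Its median was 0.624 in one-to-one pairs and 0.618 with equal numbers, that of ISGs 0.534 at the stricter q, and that of box pair regions 0.378 in one-to-one pairs and 0.415 with the pair within 500 bp. The depths rest on an assumed genome of 2.7 Gb.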

Other observations

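Some of the highest coverage ratios, among matched regions with at least 60 control fragments, were looked up after their values had been seen. A region downstream of POLD2, which encodes a subunit of DNA polymerase delta, had its summit 1832 bp from the nearest TSS. It held 137 fragments in control and 204 in siDLEU1-2 cells, a ratio of 1.16 (95% counting interval 0.931 to 1.44). MATR3, a nuclear matrix protein gene, had 67 and 95 fragments (1.10, 0.805 to 1.5), and KRT17, a basal keratin gene, 73 and 100 (1.06, 0.786 to 1.44). Each of these intervals includes 1 and lies wholly above the median ratio of all matched regions, 0.621.

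GC content at the summit moved with the coverage ratio. Among 13418 matched regions with at least 45 control fragments, the median GC content was 59.8% in the 194 regions with a ratio up to 0.4, 65.1% in 4630 regions from 0.5 to 0.6 and 67.4% in 1816 regions from 0.7 to 0.8. The part of GC content in the ratios was not tested.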
